A study of Mus musculus with 24 samples.

Results

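The genes described here are 10 markers of liver sinusoidal endothelial cells, namely Stab1, Stab2, Lyve1, Kdr, Pecam1, Clec4g, Fcgr2b, Cdh5, Ptprb and Tek. They were taken by symbol from 3 tables of FPKM (fragments for each kilobase of a gene, relative to library size), and they are 10 of the 16678 genes that all 3 tables list under 1 symbol. The genes were chosen by their contrast between the morphological organoid libraries and the bulk libraries, so that contrast is given as a description without a test.

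The cells came from wild-type adult BALB/c mice. Primary hepatocytes (Pri-Hep) were obtained by Percoll density and depletion of EpCAM-positive cells on beads. Hepatocyte organoids (Hep-Orgs) grew from such cells in Matrigel, in hepatocyte medium with the Notch pathway inhibitor DAPT and the glucocorticoid dexamethasone, and were sequenced at passages P1, P5 and P10. Cholangiocyte organoids (Cho-Orgs) came from the EpCAM-positive cells and were sequenced at P0, P5 and P10. Each of these 7 bulk groups has 3 libraries, which gives 21 poly(A) libraries. In a separate experiment, P0 Hep-Orgs in hepatocyte medium without both additions were picked by shape, as grape-like, intermediate or round-like, and sequenced from amplified full-length cDNA (Smart-Seq), with 1 library for each subtype and no replicate. EpCAM was the only surface marker used in the isolations described.

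Sinusoidal endothelial cells line the liver capillaries, hold open pores without a basement membrane, and clear waste proteins, modified lipoproteins and immune complexes from the blood. Stabilins, the hyaluronan receptor LYVE1 and the inhibitory Fc receptor FcγRIIb carry much of this scavenging. VEGF signalling through KDR maintains the cells, and the angiopoietin receptor TIE2, encoded by Tek, controls vessel stability and is held in check by the phosphatase VE-PTP, encoded by Ptprb. Stab1, Lyve1 and Fcgr2b are also made by some macrophages.

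Promoter windows from 250 bases before to 50 after the gene start were at hand for 6 of the 10 genes, Stab1, Stab2, Kdr, Clec4g, Fcgr2b and Tek, from RefSeq on GRCm38.p6. Each was searched on both strands for the core of the ETS factors AGGAAG, which drive many endothelial genes, the GATA core AGATAA and the SOX core AACAAT. The ETS core occurs in 35.4% of 32851 promoters of the same length, the GATA core in 11.2% and the SOX core in 10.7%. The windows of the stabilins are shown because these are the scavenger receptors of the cell type, that of Clec4g because it holds the most ETS matches, and that of Tek because its levels departed from those of the other genes. Capitals mark the motif matches on either strand, and each window reads 5′ to 3′ on the strand of the gene. The Stab1 window is at chr14:31168592-31168891 on the minus strand, Stab2 at chr10:87007893-87008192 on the minus strand, Clec4g at chr8:3720602-3720901 on the minus strand and Tek at chr4:94739039-94739338 on the plus strand.
Stab1: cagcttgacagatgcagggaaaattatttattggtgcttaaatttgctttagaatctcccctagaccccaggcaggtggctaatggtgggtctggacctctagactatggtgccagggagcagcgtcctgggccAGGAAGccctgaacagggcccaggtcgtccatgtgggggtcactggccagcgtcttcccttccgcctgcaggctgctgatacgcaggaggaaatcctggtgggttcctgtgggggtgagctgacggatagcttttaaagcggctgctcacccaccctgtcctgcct
Stab2: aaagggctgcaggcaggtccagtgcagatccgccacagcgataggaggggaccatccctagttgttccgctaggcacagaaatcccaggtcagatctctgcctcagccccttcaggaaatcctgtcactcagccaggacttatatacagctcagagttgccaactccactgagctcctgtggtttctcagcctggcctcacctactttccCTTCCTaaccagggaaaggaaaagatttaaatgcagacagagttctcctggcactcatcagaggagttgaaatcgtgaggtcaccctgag
Clec4g: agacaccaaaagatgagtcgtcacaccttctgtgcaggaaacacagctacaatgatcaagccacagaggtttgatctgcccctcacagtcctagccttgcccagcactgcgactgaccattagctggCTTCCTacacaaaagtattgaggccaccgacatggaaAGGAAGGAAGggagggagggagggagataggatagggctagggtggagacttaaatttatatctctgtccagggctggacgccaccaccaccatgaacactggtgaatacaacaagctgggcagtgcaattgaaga
Tek: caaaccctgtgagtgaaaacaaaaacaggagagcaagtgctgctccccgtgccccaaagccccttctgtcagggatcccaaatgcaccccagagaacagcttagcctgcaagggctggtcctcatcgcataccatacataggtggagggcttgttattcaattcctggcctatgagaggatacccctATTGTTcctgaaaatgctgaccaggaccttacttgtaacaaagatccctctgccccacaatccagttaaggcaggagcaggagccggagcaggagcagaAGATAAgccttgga
The Stab1 and Stab2 windows held 1 ETS core each and the Clec4g window held 3, a pair of which overlap. The Tek window held no ETS core, 1 GATA core and 1 SOX core. The windows of Kdr and Fcgr2b held none of the 3 motifs. These matches describe letters in short windows and were not tested for binding.

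The libraries were checked before the genes were compared. The hepatocyte table held 14068906 to 27160365 fragments per library, while about 37370000 to 40010000 were estimated for the Cho-Orgs and 40150000 to 40530000 for the Smart-Seq libraries. The Pri-Hep libraries went against their label: the cholangiocyte keratin Krt19 stood at 237 ± 6.66 FPKM (SD, n = 3) against 112 ± 7.99 for albumin (Alb), and the mature hepatocyte enzyme Cyp2e1 reached at most 0.0300. There, 1, 1 and 0 of 10986 genes passed an adjusted p of 0.05 by limma at P1, P5 and P10 against Pri-Hep, and 911, 1184 and 730 passed an unadjusted p of 0.05. The Hep-Orgs libraries were alike in this. Their 6 cholangiocyte markers summed to means of 3649, 3638 and 3780 FPKM at P1, P5 and P10. The 8 hepatocyte markers summed to 583, 593 and 574, with Cyp2e1 at 0. In Pri-Hep these sums were 3726 and 565. The Cho-Orgs P0 libraries held Alb at 4994 ± 406 FPKM (n = 3) beside Krt19 at 1045 ± 83.5 (n = 3). The counts of genes above every bulk library are therefore also given without Pri-Hep and without Cho-Orgs P0. Every test in the hepatocyte table was against Pri-Hep, and the main Cho-Orgs fit included P0. The morphological and bulk libraries also differ in library preparation, table, passage and medium, so the parts of shape and of these factors in any difference between the tables cannot be told apart. In bulk samples, fewer cells of a type and less RNA per cell cannot be told apart either.

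In the 3 morphological libraries, all 10 endothelial genes were detected, and every one was highest in grape-like, lower in intermediate and lowest in round-like organoids. The ratio of grape-like to round-like FPKM was between 4.54 and 8.99, with a median of 5.47, while the median over all genes was 0.897. By contrast, in the 21 bulk libraries 8 of the 10 genes stayed below 0.5 FPKM. The exceptions, Tek and Ptprb, both reached their bulk maximum in Cho-Orgs at P5.

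**Figure D1:**
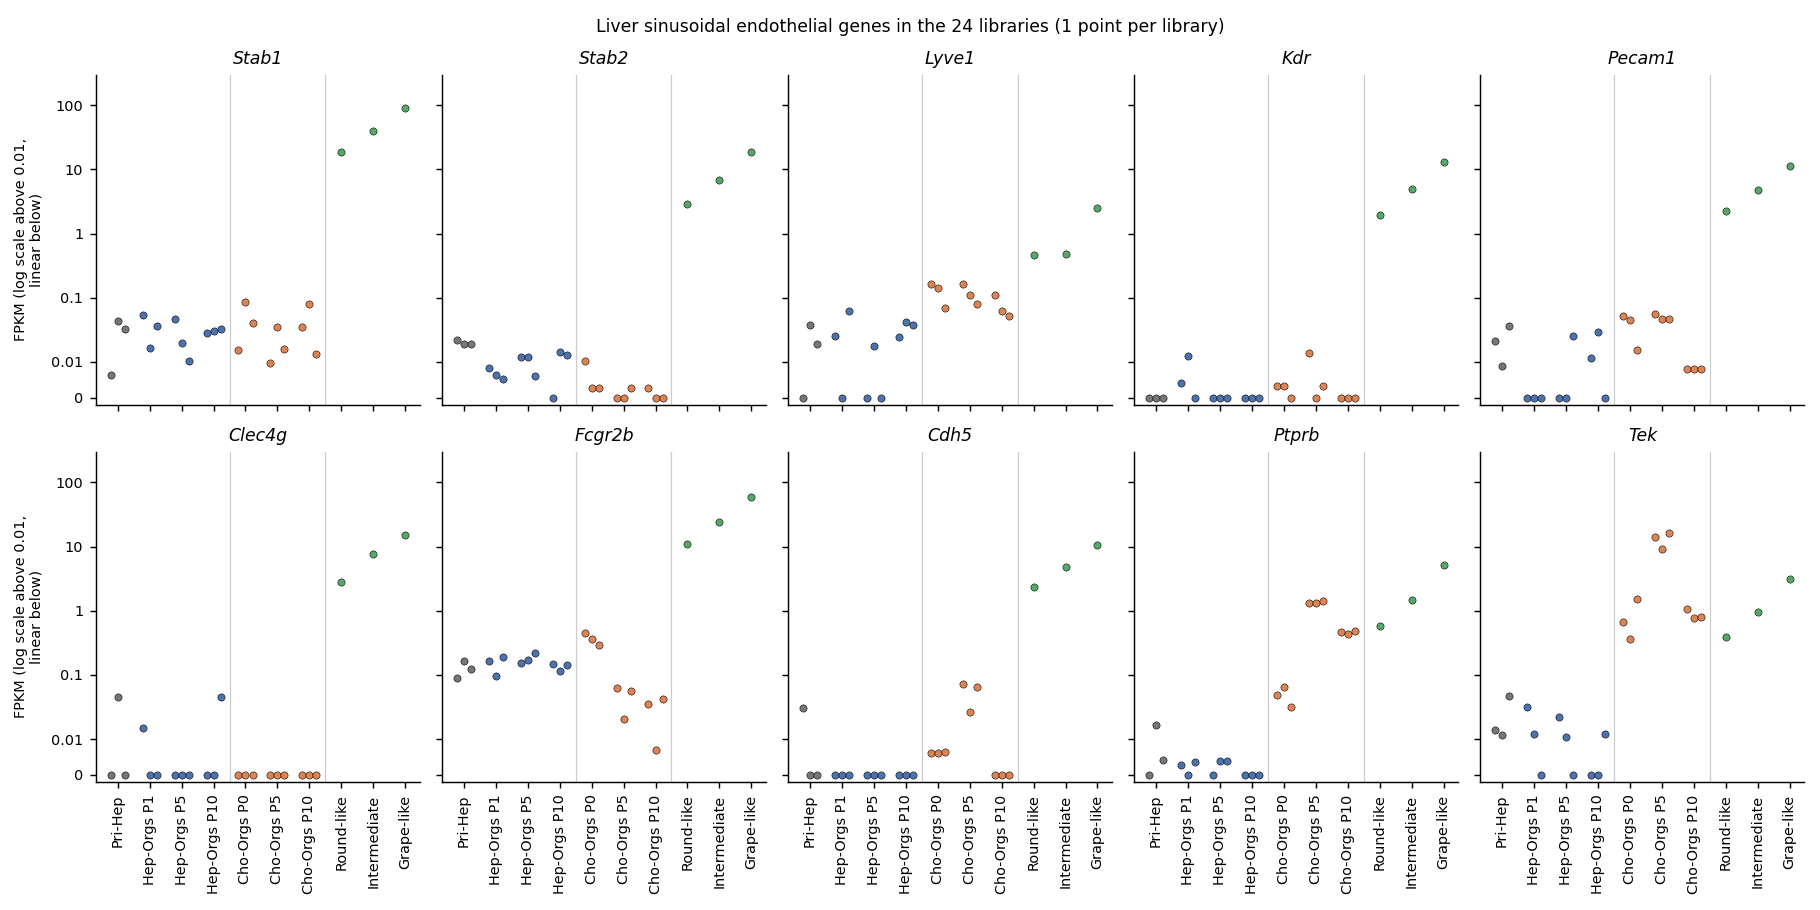
FPKM of the 10 genes (y axis, logarithmic above 0.01 and linear below) in each of the 24 libraries, 1 point per library, grouped along the x axis as Pri-Hep (grey), Hep-Orgs (blue), Cho-Orgs (orange) and the Smart-Seq organoids (green). The green points lie above all others except for Ptprb and Tek, whose Cho-Orgs P5 points reach 1.40 and 16.2 FPKM.

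Among the scavenging receptors, Stab1, which takes up modified lipoproteins and placental lactogen, had the highest level per length. Its FPKM was 91.8 in grape-like, 39.6 in intermediate and 18.3 in round-like organoids. The related Stab2, a clearance receptor for hyaluronan, stood at 18.6, 6.80 and 2.85 FPKM in the same order. Each step was more than 2-fold for both stabilins, and the 95% exact interval of the grape-like to round-like ratio was 4.90 to 5.14 for Stab1 and 6.09 to 6.96 for Stab2. These intervals cover counting error only, since amplified reads without molecular identifiers are not independent molecules, and rest on estimated fragment counts.

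Fcgr2b, which encodes the inhibitory Fc receptor that takes up small immune complexes, was the next highest, at 58.6, 23.9 and 11.1 FPKM in grape-like, intermediate and round-like organoids. Clec4g, a C-type lectin of the sinusoidal endothelium (LSECtin), was listed at 15.4, 7.56 and 2.79 FPKM. Lyve1 was the lowest of the group in grape-like organoids, at 2.49 FPKM, and it dropped to 0.485 in intermediate and 0.457 in round-like organoids. For Lyve1 the intermediate and round-like values rested on about 57 and 54 fragments, and the interval of their ratio, 0.711 to 1.55, includes 1. For the other 9 genes the interval of this ratio lay above 1.

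Among the genes of vascular signalling and junctions, Kdr, the main VEGF receptor, was at 13.0, 4.97 and 1.95 FPKM in grape-like, intermediate and round-like organoids. Pecam1, the endothelial adhesion molecule CD31, was at 11.2, 4.70 and 2.21 FPKM. Cdh5, the junctional cadherin of endothelium, was at 10.6, 4.82 and 2.34 FPKM and showed the smallest grape-like to round-like ratio of the 10, 4.54. The levels of these 3 genes thus ran close together in each library.

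The Tek and Ptprb pair was lower but steeper. Tek was at 3.14, 0.962 and 0.384 FPKM, a grape-like to round-like ratio of 8.18 with an interval of 6.40 to 10.6. Ptprb was at 5.21, 1.48 and 0.579 FPKM, a ratio of 8.99 with an interval of 8.01 to 10.2. The interval of Ptprb lay above those of the other members apart from Tek, with which it overlapped.

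The sum of the 10 genes was made up mostly of Stab1 and Fcgr2b in each library. Stab1 took 39.9% of the summed FPKM in grape-like, 41.6% in intermediate and 42.6% in round-like organoids, and Fcgr2b took 25.5%, 25.1% and 25.9%. The share of Stab2 was 8.08%, 7.14% and 6.64%, and that of Ptprb was 2.27%, 1.56% and 1.35%. Tek took 1.37%, 1.01% and 0.893%, and Lyve1 1.08%, 0.509% and 1.06%. The shares of Stab2, Ptprb and Tek were thus lower in round-like than in grape-like organoids, and that of Lyve1 was lowest in intermediate ones. The sum itself was 230 FPKM in grape-like, 95.3 in intermediate and 43.0 in round-like organoids.

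On the scale of log2(FPKM + 1), all 10 genes were at least 2-fold higher in grape-like than in round-like organoids, and 12.9% of 12595 genes were. Between grape-like and intermediate organoids 8 of the 10 passed this fold, compared with 9.71% of all genes, and Clec4g and Cdh5 were just under it. Between intermediate and round-like organoids 5 of the 10 passed it, compared with 3.85%. The order grape-like, intermediate, round-like that all 10 genes followed was shown by 20.3% of all genes. These libraries are part of the contrast by which the genes were selected, and nothing is read from the counts.

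The Smart-Seq libraries also carried markers of the other cells of the sinusoid, and these lists moved with the endothelial genes in whole or in part. All 12 Kupffer cell and macrophage markers followed the same order, and their summed FPKM was 10925 in grape-like, 3151 in intermediate and 1749.5 in round-like organoids. The most abundant was the lysozyme gene Lyz2, with 5942 FPKM in grape-like organoids, and the complement genes C1qa and C1qb reached 771 and 758. Of 12 stellate cell and fibroblast markers 7 followed the order, but Lrat, Des, Col3a1, Acta2 and Hand2 did not. The 12 summed to 1670.3, 429 and 367 FPKM. The highest were the matrix genes Dcn and Col3a1, at 658 and 502 FPKM in grape-like organoids. No defining marker of either list was at 0 in a morphological library. Of 9 leukocyte and B cell markers listed there 4 reached 1 FPKM, and the sums were 71.8, 29.4 and 14.9. Platelet and erythroid markers summed to 190.3, 79.7 and 85.9 FPKM. Pf4 alone was at 184.9 in grape-like organoids, where Ppbp, Gp9 and Hbb-bs were at 0. Of 3 genes taken as lymphatic markers, Ccl21a was not listed for these libraries. Prox1 and Pdpn summed to 23.0, 27.5 and 17.4, below their sum of at least 41.25 in every library of the hepatocyte table. Which cells made Prox1 and Pdpn was not tested. The part of macrophages and the other cell types named here in the levels of the shared genes Stab1, Lyve1 and Fcgr2b was not tested.

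Hepatocyte markers shared the order in part and cholangiocyte markers did not. Of the 8 hepatocyte markers 4 followed it, with a median grape-like to round-like ratio of 6.90 over all 8, while Alb, Ttr, Serpina1a and Hnf4a did not. The 8 markers summed to 4706 FPKM in grape-like, 7177 in intermediate and 1151 in round-like organoids. The 6 cholangiocyte markers summed to 846, 3356 and 2744, and none of the 6 followed the order of the endothelial genes.

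**Figure D2:**
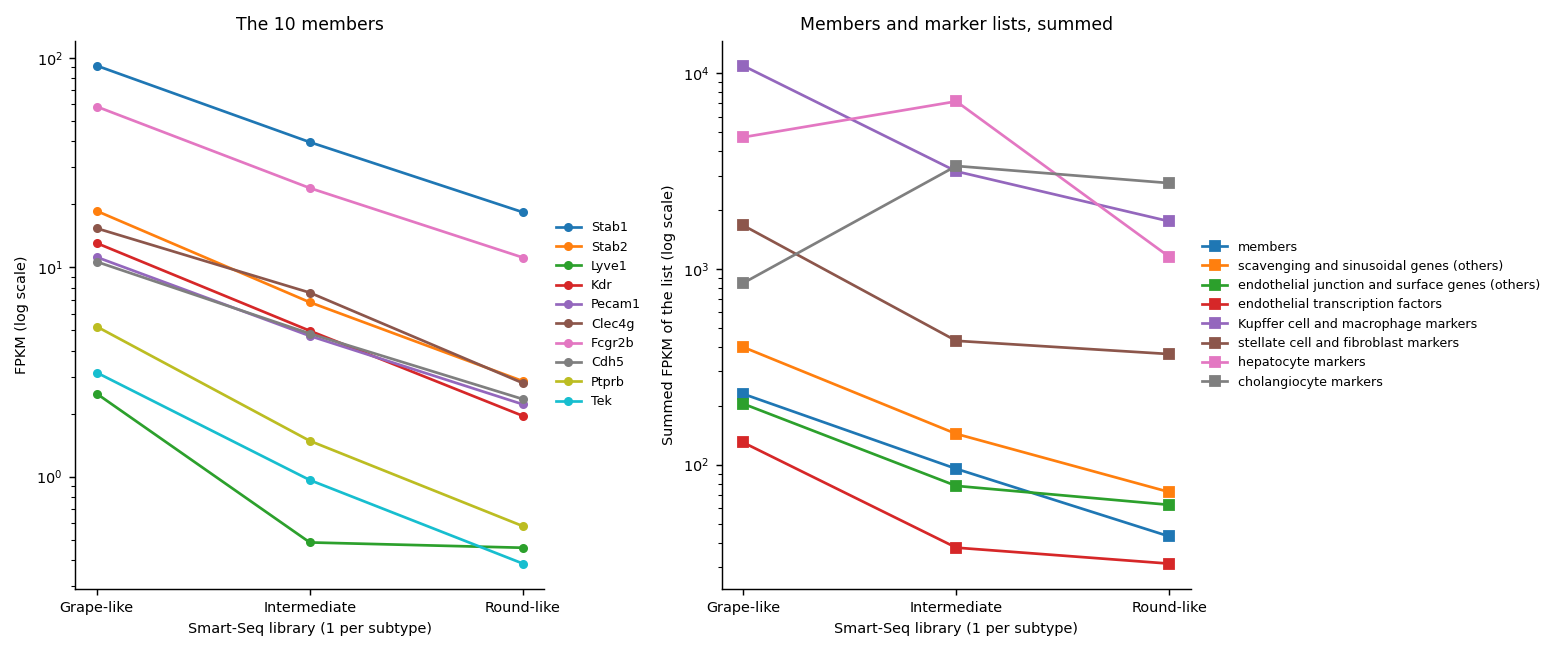
Left, FPKM (logarithmic y axis) of each of the 10 genes by organoid shape (x axis, 1 library per subtype). Right, FPKM summed over the 10 genes (members) and over 7 marker lists in the same libraries. The 10 lines on the left all fall from left to right, from 230 to 43.0 FPKM in sum, the macrophage and stellate lists fall likewise, and the cholangiocyte list runs from 846 to 2744.

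Other genes listed as endothelial or angiocrine, from lists assembled with earlier results of these data known, showed how far the pattern reached. How much of their levels came from macrophages or stellate cells, whose markers the same libraries held, was not tested. Of 9 further scavenging and sinusoidal genes, 7 reached 1 FPKM in a morphological library and 5 followed the order, with a median grape-like to round-like ratio of 5.18. The mannose receptor Mrc1 was the highest, at 321 FPKM in grape-like organoids, and the fatty acid transporter Cd36 reached 29.1. Gpr182, an endothelial chemokine scavenger, was instead highest in intermediate organoids, at 37.3 FPKM against 18.3 in grape-like and 14.9 in round-like organoids. Of 16 further junction and surface genes, 14 reached 1 FPKM and 13 of them followed the order. The fenestral diaphragm gene Plvap was at 86.1 and Ramp2, a subunit of the adrenomedullin receptor, at 27.2 FPKM in grape-like organoids. Vwf, the clotting factor of larger vessels that sinusoidal endothelium makes little of, was at no more than 0.293 FPKM in the 3 libraries.

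Of 10 endothelial transcription factors, 9 reached 1 FPKM and 7 followed the order. Maf stood at 82.7, 20.2 and 15.3 FPKM. Gata4, which specifies the sinusoidal fate, reached 18.3 FPKM but did not follow the order. Sox17, a factor of arterial endothelium that biliary cells also make, was highest in round-like organoids, at 5.95 FPKM, with 0.145 in grape-like and 0.0261 in intermediate organoids. Of 8 further VEGF, angiopoietin and BMP receptors, 5 of the 7 that reached 1 FPKM followed the order, among them Eng with 67.0 and Nrp2 with 23.7 FPKM in grape-like organoids. Among 6 angiocrine ligands, 5 reached 1 FPKM and 3 of them followed the order, but Wnt2 and Hgf did not. Rspo3 reached 56.9 FPKM and Hgf 19.8, whereas Vegfa, the ligand of Kdr, varied only between 20.7 and 27.6 FPKM.

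The 5 genes outside all lists whose log2(FPKM + 1) across the 24 libraries was most like the mean of the 10 genes were Ttc7b, Pmp22, Rassf2, Cd37 and Nfam1, with Pearson r between 0.989 and 0.995. Across libraries, 8 of the 10 members had an r of at least 0.934 with that mean, to which each contributes. For Ptprb r was 0.842 and for Tek 0.319. These correlations rest on the step between the tables and are descriptions.

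In Pri-Hep and Hep-Orgs the endothelial genes were at the edge of detection. Their sum was 0.183 to 0.343 FPKM in the 3 Pri-Hep libraries and 0.143 to 0.305 in the 9 Hep-Orgs libraries, so the ranges overlapped with or without Pri-Hep. Fcgr2b was the highest, with a minimum of 0.0896, a median of 0.151 and a maximum of 0.220 FPKM over the 12 libraries, from 8 to 26 fragments per library. Stab1 ranged from 0.00630 to 0.0535 FPKM, which corresponds to 1 to 15 fragments. Kdr was at 0 in 10 of the 12 libraries, Cdh5 in 11 and Clec4g in 9, and these 3 genes had 3, 2 and 5 fragments over the whole table. A level of 3 fragments, the limit that a count of 0 allows, lay at 0.0190 FPKM for Stab1 in the first Pri-Hep library.

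None of the 10 genes reached 1 FPKM in 3 libraries of this table, so none entered the test with that filter. When all genes above 0 were tested with limma, 0 of the 10 passed an adjusted p of 0.05 at P1, P5 or P10 against Pri-Hep, and 0 passed an unadjusted p of 0.05. The share of all 20509 genes that passed was 0.00488% at P1, 0.0195% at P5 and 0.00975% at P10, so that very few genes of the table passed. Differences of the members in log2(FPKM + 1) lay between -0.03 for Pecam1 at P1 and 0.07 for Fcgr2b at P5. Kdr, Cdh5 and Clec4g had too few fragments for a change to be detectable, whereas Fcgr2b had 38 to 60 fragments per group.

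In Cho-Orgs the genes of the TIE2 axis changed with passage. Tek and Ptprb rose from P0 to P5 and fell again from P5 to P10, whereas Fcgr2b fell from P0 to P5. Clec4g was at 0 in all 9 libraries, where 3 fragments would correspond to at least 0.0305 FPKM, and Stab1, Stab2, Lyve1 and Kdr were at most 0.164 FPKM.

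Tek was measured at 0.668, 0.362 and 1.50 FPKM in the 3 libraries at P0, at 14.2, 9.18 and 16.2 at P5, and at 1.07, 0.771 and 0.793 at P10. Every P5 library lay above every other library, and the P0 and P10 ranges overlapped. The mean of 13.2 FPKM at P5 was 15.7 times that at P0 and 15.0 times that at P10. In log2(FPKM + 1) the rise from P0 to P5 was 2.96 (SE 0.23, limma adjusted p = 5.49e-06), and from P5 to P10 Tek fell by 2.89 (SE 0.23, limma adjusted p = 5.99e-06). P10 and P0 differed by 0.07 (SE 0.23, limma adjusted p = 0.795), and the sign of this difference changed when the first or the second replicate was left out.

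Ptprb was measured at 0.0478, 0.0649 and 0.0312 FPKM at P0, at 1.34, 1.30 and 1.40 at P5, and at 0.470, 0.427 and 0.474 at P10. The 3 passages did not overlap, with P5 highest and P0 lowest. The mean at P5 was 28.0 times that at P0, and the mean at P10 was 9.52 times that at P0. The rise from P0 to P5 was 1.16 in log2(FPKM + 1) (SE 0.07, limma adjusted p = 8.52e-07), a scale that understates the change of a low gene. Ptprb then fell by 0.69 from P5 to P10 (SE 0.07, limma adjusted p = 2.40e-05) and remained 0.48 above P0 (SE 0.07, limma adjusted p = 0.000146).

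With the filter of 1 FPKM in 3 libraries, only Tek and Ptprb of the 10 genes were tested. Ptprb passed this filter only through the 3 P5 libraries, so that it had to be high there. Tek passed through P5 with 1 further library each of P0 and P10. Both passed the test from P0 to P5 and from P5 to P10, where 56.6% and 61.5% of the 11593 genes tested did, and Ptprb alone passed from P0 to P10, where 72.3% did. With so large a share of all genes called, nothing is read from the count of 2 members. In the main fit the comparison of P10 with P5 shares its filter and its estimate of spread with the P0 libraries. With only P5 and P10 fitted, Tek and Ptprb again passed and fell, where 7983 of 11195 genes passed.

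With all genes above 0 tested by limma, the other members could be assessed, and Tek and Ptprb kept their calls. Of 9 members tested, 4 passed from P0 to P5, against 33.5% of all 22670 genes. From P0 to P10 3 of 9 passed, against 44.5%, and from P5 to P10 4 of 9 passed, against 34.6%. Clec4g, at 0 throughout, could not be tested.

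Fcgr2b was at 0.450, 0.357 and 0.290 FPKM at P0, at 0.0628, 0.0208 and 0.0551 at P5, and at 0.0346, 0.00704 and 0.0422 at P10. All P0 libraries lay above all later ones, and P5 and P10 overlapped. In log2(FPKM + 1) it fell by 0.38 from P0 to P5 (SE 0.04, limma adjusted p = 0.000301) and by 0.41 from P0 to P10 (SE 0.04, limma adjusted p = 9.62e-05). Both calls held without each replicate in turn. The P0 mean was 7.91 times the P5 mean and 13.1 times the P10 mean. Between P5 and P10 the difference was -0.03 (SE 0.04, limma adjusted p = 0.710).

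Cdh5 and Pecam1 passed the test without the filter at levels of a few fragments. Cdh5 was at 0.0721, 0.0260 and 0.0646 FPKM at P5, about 4 to 12 fragments, against about 1 fragment per library at P0 and 0 at P10. Its difference from P0 to P5 was 0.07 (SE 0.02, limma adjusted p = 0.0120) and it fell by 0.08 from P5 to P10 (SE 0.02, limma adjusted p = 0.00625). Pecam1 was at 0.0556, 0.0472 and 0.0470 FPKM at P5 and at about 0.00800 in each P10 library, a level under 3 fragments. It fell by 0.06 from P5 to P10 (SE 0.01, limma adjusted p = 0.0104) and by 0.04 from P0 to P10 (SE 0.01, limma adjusted p = 0.0352). Both genes thus moved within 0.1 FPKM. The Cdh5 calls were lost without replicate 1 (limma adjusted p = 0.123 from P0 to P5 and 0.0822 from P5 to P10) and without replicate 3 (0.156 and 0.113). Those of Pecam1 were lost without replicate 1 (0.224 from P0 to P10 and 0.0765 from P5 to P10) and without replicate 2 (0.239 and 0.0956).

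The hyaluronan receptor Lyve1 and the stabilins gave no call in Cho-Orgs. Lyve1 ranged from 0.0688 to 0.164 FPKM at P0, from 0.0801 to 0.162 at P5 and from 0.0512 to 0.111 at P10, and the 3 ranges overlapped. From P0 to P10 its difference was -0.07 (SE 0.04, limma adjusted p = 0.240), and with a replicate block the adjusted p was 0.0301. Stab1 lay between 0.00978 and 0.0864 FPKM and Stab2 and Kdr at no more than 0.0135 over the 9 libraries.

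**Figure D3:**
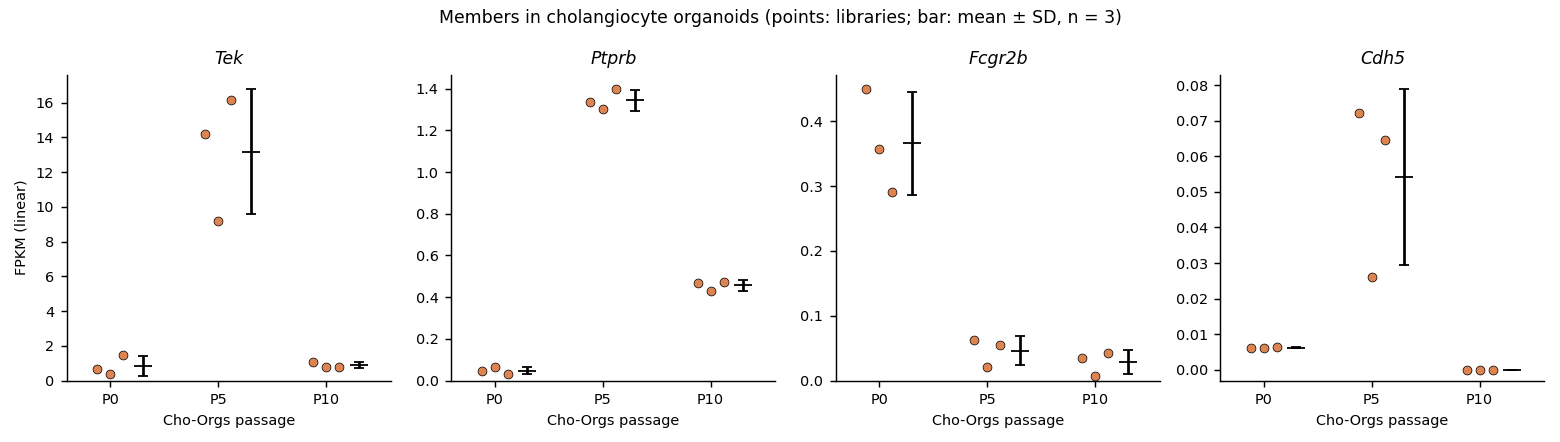
FPKM on a linear axis of Tek, Ptprb, Fcgr2b and Cdh5 in Cho-Orgs at P0, P5 and P10 (x axis), 1 point per library with the mean ± SD (n = 3) beside it. Tek and Ptprb peak at P5, with means of 13.2 and 1.35 FPKM, and Fcgr2b is highest at P0.

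**Figure D4:**
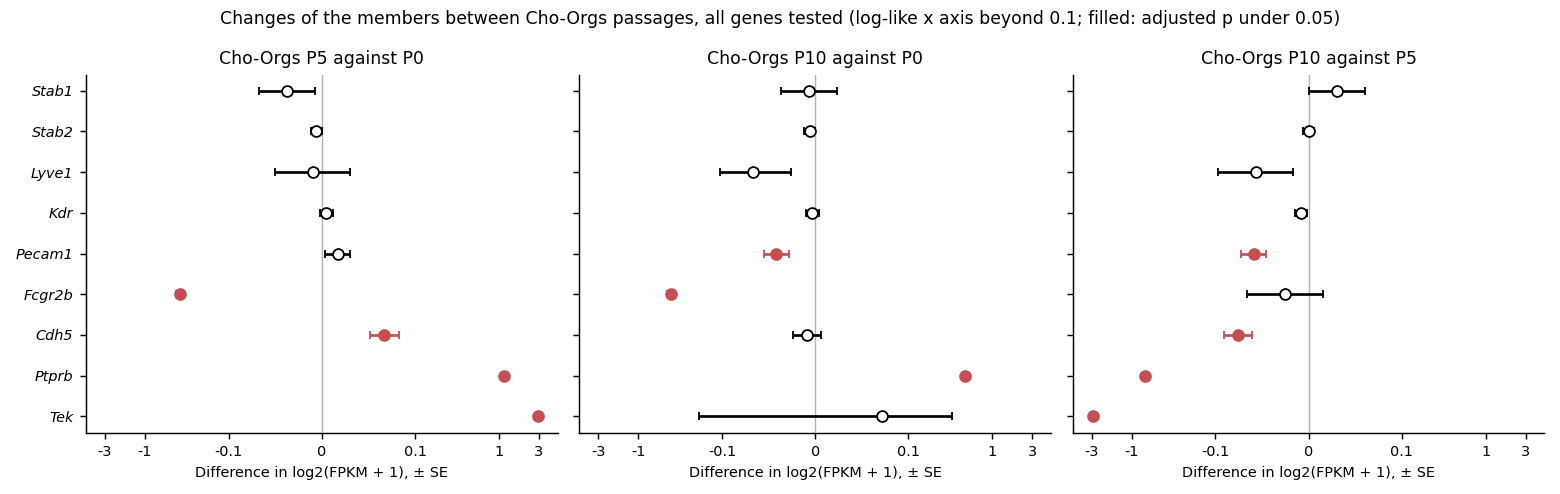
Difference in log2(FPKM + 1) ± SE between Cho-Orgs passages for the 9 members above 0, from the limma fit over all genes, on an axis that is linear within 0.1 of 0 and logarithmic beyond. Filled points passed an adjusted p of 0.05, which held for 4, 3 and 4 of the 9 genes in the 3 comparisons.

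Set against the Smart-Seq libraries, Tek was the only member whose highest bulk library, 16.2 FPKM, exceeded the grape-like organoids, at 3.14 FPKM. Ptprb at P5 lay between the round-like and intermediate levels. For the remaining 8 genes every morphological library was above every bulk library, a pattern that 18.0% of 12767 genes showed. Against the hepatocyte table alone it held for all 10 genes and for 48.8% of all genes, and without the Cho-Orgs P5 libraries for 9, all but Tek, and for 18.7% of all genes. The count was 8 without the Pri-Hep libraries, against 18.0% of all genes, and 8 without the Cho-Orgs P0 libraries, against 24.5%. These counts come from tables that were normalized separately and restate the choice of the genes.

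Ordered by the sum of the 10 genes, grape-like, intermediate and round-like organoids came first, at 230, 95.3 and 43.0 FPKM. Cho-Orgs P5 followed with 10.7 to 17.8 FPKM over its libraries, of which Tek made up the larger part. Cho-Orgs P0, with 1.07 to 1.95, and P10, with 1.35 to 1.73, overlapped each other, and the hepatocyte table was below them.

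Other genes of the vascular lists also changed between Cho-Orgs passages. Of 16 junction and surface genes outside the members, 3 passed the filter. Vwf rose from 0.608 ± 0.137 FPKM at P0 to 5.74 ± 0.869 at P5 (SD, n = 3, limma adjusted p = 3.10e-07) and was 0.0643 ± 0.0211 at P10 (n = 3). Like Ptprb, Vwf passed the filter only through the P5 libraries and so had to be high there, and it was called in the same directions when all genes were tested. Esam, a junctional adhesion molecule, rose to 4.65 ± 0.294 FPKM at P5 from 2.69 ± 0.824 at P0 (SD, n = 3, limma adjusted p = 0.00398) and fell to 0.669 ± 0.180 at P10. Egfl7, a secreted vascular factor, did not pass from P0 to P5 (18.0 ± 0.496 against 18.6 ± 1.24 FPKM, n = 3, limma adjusted p = 0.604) but fell to 8.02 ± 0.624 at P10. All 3 genes fell from P5 to P10, in a comparison where 61.5% of genes passed.

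Of the 8 further receptors, 4 passed the filter, and the VEGF co-receptor Nrp2 and the BMP receptor Bmpr2 rose in all 3 comparisons. Nrp2 went from 1.13 ± 0.130 FPKM at P0 to 3.46 ± 0.0994 at P5 and 4.26 ± 0.318 at P10 (SD, n = 3). Of 8 ligands 3 were tested, and Vegfa rose from 107 ± 22.8 FPKM at P0 to 153 ± 4.16 at P5 (SD, n = 3, limma adjusted p = 0.00381) and fell to 117 ± 2.13 at P10. Of 10 endothelial transcription factors 3 were tested. Sox17 rose from 10.8 ± 1.09 to 17.6 ± 0.881 FPKM between P0 and P5 (n = 3, limma adjusted p = 4.28e-05), while the flow-responsive Klf2 fell by 0.56 in log2(FPKM + 1) (limma adjusted p = 0.00290). The angiocrine ligands Bmp2 and Bmp6, the 2 tested of 6, both fell from P5 to P10, by 1.28 and 1.22 in log2(FPKM + 1).

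Of 9 further scavenging genes only Gpr182 was tested, and it was at 1.41 ± 0.115 FPKM at P0 (SD, n = 3) against at most 0.0156 at P5 and 0 at P10. Gpr182 passed the filter only through P0, and it was called in the same direction without a filter. Gpr182 and Fcgr2b were both highest at P0, when the libraries also held Lyz2 at up to 15.8 FPKM and Alb at 4994. The sum of the 12 stellate cell and fibroblast markers was highest at P0 too, at 64.6 to 79.5 FPKM. It was 7.64 to 8.50 at P5 and 0.209 to 0.293 at P10. Most of the P0 sum was Reln, at up to 74.5 FPKM. Rgs5 reached 4.89, and the median of the 12 markers at P0 was only 0.0841. Without a filter 5 of the 12 were lower and 0 higher at P5 than at P0, where 33.5% of all 22670 genes passed in either direction. The part of other cells in the fall of Fcgr2b was not tested. The macrophage list summed to 43.8 to 49.5 FPKM at P0, 72.1 to 77.3 at P5 and 10.1 to 10.5 at P10. At P5 and P10 9 of its 12 genes were at 0 and nearly all of the sum was Cd68, a lysosomal protein, at 74.5 ± 2.59 and 9.53 ± 0.340 FPKM (n = 3). Tested without a filter from P0 to P5, 5 of 9 macrophage markers fell, namely Adgre1, C1qa, C1qb, C1qc and Lyz2, and Cd68 alone rose. Of 9 leukocyte markers tested without a filter from P0 to P5, where 33.5% of all genes passed, Itgam, Ptprc and S100a8 fell. The T cell gene Cd3e alone rose, to 2.56 ± 0.219 FPKM (n = 3). The neutrophil gene S100a9 was at 2.47 ± 0.755 FPKM at P0, 2.04 ± 0.896 at P5 and 9.11 ± 0.316 at P10 (n = 3). The members Clec4g, Kdr, Cdh5 and Pecam1 together were under 0.15 FPKM in every P5 library, where Tek exceeded 9 FPKM. Without a filter, Cdh5, Ptprb and Tek were called higher at P5 than at P0 and Fcgr2b lower. Among the further junction and surface genes Esam and Vwf were higher and S1pr1 lower, where 33.5% of all genes passed. Which cells made Tek was not tested.

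Genomic neighbours were examined for shared reads. Tek, on chromosome 4 at 94739289 to 94874976 in the mm10 coordinates of the hepatocyte table, overlaps no other RefSeq gene, and its neighbours Plaa and Ift74 did not share its peak, with Plaa at 9.63 ± 0.794, 12.3 ± 0.211 and 12.4 ± 0.234 FPKM at P0, P5 and P10 (n = 3). Ptprb, on chromosome 10 at 116275523 to 116389535, lies beside Ptprr, which was at 0.451 ± 0.177, 0.496 ± 0.206 and 2.68 ± 0.209 FPKM and so was highest at P10. The 3′ end of Stab1, on chromosome 14 at 31139013 to 31168641, overlaps Nt5dc2, and Nt5dc2 was at 102, 33.6 and 31.1 FPKM in grape-like, intermediate and round-like organoids. Fcgr2b belongs to a family of close relatives, and Fcgr3 was at 77.9, 21.7 and 12.7 FPKM in the same libraries. How the counting divided reads between these genes was not tested.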

How the data were processed

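The genes and lists were chosen with earlier results of these data known. The authors deposited FPKM, scaled by library total and gene length, for each experiment in a separate table. Gene lengths were listed only in the hepatocyte table. The submitters' processing notes name featureCounts 2.0.3, edgeR 3.40.2 and mm10, while the aligner and annotation release are not given in the sources used here.

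In the hepatocyte table, FPKM times gene length gave whole fragments within 0.05 for 100% of values. Depth in the other tables was estimated from the steps of low genes, and is approximate. Values were compared as log2(FPKM + 1) with limma 3.58.1 in R 4.3.3 (lmFit, eBayes with trend, two-sided), all groups of a table together, on genes that reached 1 FPKM in 3 or more libraries, with Benjamini-Hochberg adjustment over all genes tested and a threshold of 0.05. The fit was tested on simulated data with the same small spread for all genes and no counting noise. That test says nothing about genes of few fragments. The 3 tables were never fitted together. Differences between single Smart-Seq libraries were not tested, and exact 95% intervals there cover counting error only. Python 3.11.15, pandas 2.3.3, scipy 1.17.1 and matplotlib 3.10.9 were used for tables and figures.

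Every member is named. From each other list, the rule names up to 3 genes with the highest FPKM in a morphological library, up to 2 with the highest bulk mean, and up to 3 past the threshold with the largest change in Cho-Orgs. Neighbouring genes, Vwf in the Smart-Seq libraries and Cyp2e1 were chosen after their values were seen. The sources do not settle whether replicates came from separate mice or cultures, so p-values measure the spread between these samples. Deviations of libraries with the same replicate number had a median correlation of -0.0063 over 9 pairs in Cho-Orgs and -0.0016 over 18 pairs in the hepatocyte table. Alternatives were another pseudocount or filter, TPM, median-ratio factors, eBayes without trend, a replicate block, only the groups compared, limma-voom on recovered fragments, and each replicate left out.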

Additional observations from a re-analysis of the deposited data

How the results depend on the processing

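The rise of Tek and Ptprb from P0 to P5 and their fall from P5 to P10 kept their direction and passed the threshold in every alternative in which the gene was tested, with log2 differences of 2.84 to 3.97 for Tek and 1.13 to 3.29 for Ptprb, and of -3.74 to -2.70 and -1.38 to -0.67. Under the filter of 1 FPKM Ptprb was tested only because its P5 libraries were high, so those alternatives say little about its peak. Without a filter Tek and Ptprb passed in both comparisons, also with each replicate left out. Counts of members that passed in Cho-Orgs depended on the filter, which removes 8 of 10. The main counts were 2 from P0 to P5, 1 from P0 to P10 and 2 from P5 to P10. Without a filter they were 4, 3 and 4, also with a pseudocount of 0.1. At FPKM of at least 0.1 in 3 libraries, with either pseudocount, 2 passed from P0 to P10. With only the 2 groups compared none entered the test of P10 against P0, giving 0. Leaving out a replicate leaves 2 P5 libraries, so that Ptprb failed the filter and the counts were 1 to 1, 0 to 0 and 1 to 1. In the unfiltered tests with a replicate left out, chosen after seeing the data, they were 3 to 4, 2 to 3 and 2 to 3, with Cdh5 and Pecam1 as the genes lost. For Tek at P10 against P0, the log2 fold change ranged from -0.082 to 0.346 when a replicate was left out, with -0.082 without replicate 2, -0.049 without replicate 1 and 0.346 without replicate 3, the same values with no filter, and was never past the threshold.

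A replicate block left the counts at 2, 1 and 2, with 6381, 8278 and 6939 genes called in all. The replicate block without a filter, chosen after seeing the data, gave 4, 4 and 4, and added Lyve1 from P0 to P10. Since the correlations of same-numbered Cho-Orgs libraries lay between -0.0741 and 0.119, the numbers were not taken as pairs.

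Over all genes, P5 against P0 called 6559, of which 3938 were higher, and with median-ratio factors 6531, of which 3073 were higher. P10 against P0 called 8384 with 4750 higher, and 8270 with 4091 higher. Without replicate 3 the P5 against P0 count was 4268 with the filter and 4338 with none, and the P10 against P5 count with none was 4686. In the hepatocyte table the counts were 1, 1 and 0 in the main fit, 30, 39 and 0 with limma-voom, 0 at P1 and P5 with a replicate block or eBayes without trend, and 0 to 4 in the remaining alternatives. At an unadjusted p of 0.05 they were 911, 1184 and 730. In the Smart-Seq libraries all 10 genes kept their order under a pseudocount of 0.1, TPM and median-ratio factors, which gave a median grape-like to round-like ratio of 5.57 for TPM and 5.79 for median-ratio factors. The number of genes above every bulk library was 8 with TPM, with group means and without the grape-like library. Of the bulk values, those of Kdr, Stab2, Clec4g and Cdh5 rest on fewer than 12 fragments in every library.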
